A study of Mus musculus with 4 samples.

Results

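Imprinted growth genes are genes of which, in many tissues, one parental copy is silenced, and whose products restrain or promote growth. The 10 genes described here, H19, Igf2, Igf2r, Grb10, Plagl1, Dlk1, Meg3, Peg3, Peg10 and Sgce, were taken by symbol from a list. That list was chosen with earlier results of these data known, so comparisons of its members with all genes are descriptions alone. Each matched 1 of the 23746 gene rows, and 9 of the 10 were among the 12752 genes that reached 1 FPKM (fragments per kilobase of transcript scaled to the total of mapped fragments) in at least 2 of 4 primary mouse mammary tumors. Plagl1 reached that level in 1 tumor and has no test. Tumors 26043 and 26044 carried the triple-mutant genotype WapCreC;Rank;Brca1;p53 and tumors 26048 and 26050 the double-mutant genotype WapCreC;Brca1;p53, and polyA RNA was sequenced from each. All 4 females carried the WapCreC Cre transgene together with floxed Brca1 and floxed p53, and the triple-mutant females also carried floxed Rank, the receptor of the cytokine RANKL. The transgene acts in luminal and basal mammary epithelium without need of pregnancy, other cells of a tumor may keep the floxed alleles, and every file held 1 tumor. The study calls the females littermates without saying which tumors pair. It describes triple-mutant tumors in general as of intermediate and never high grade, and double-mutant tumors as of either high or intermediate grade. The age at collection and the grade of each sequenced tumor are not given in the sources used here.

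Genomic imprinting marks one parental copy of a gene by DNA methylation in the germ line, and the mark is kept in somatic cells. H19 and Igf2 lie side by side and are expressed from opposite parental copies, as are Dlk1 and Meg3. Most of these genes are highly expressed in the embryo and placenta and much lower in adult tissue, and they are known for opposing effects on fetal growth.

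H19 carries within 1 of its exons the precursor of miR-675, and the Igf2 row spans the hairpin of miR-483, so the mature miRNAs are shown with their seeds (bases 2 to 8) in capitals, as given by RefSeq on GRCm38.p6, 5′ to 3′.
mmu-miR-675-5p: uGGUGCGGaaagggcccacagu
mmu-miR-675-3p: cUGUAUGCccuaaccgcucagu
mmu-miR-483-5p: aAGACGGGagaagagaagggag
mmu-miR-483-3p: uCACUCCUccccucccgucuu
The H19 pair lies on the minus strand at chr7:142577112-142577133 (5p) and chr7:142577078-142577099 (3p). The Igf2 pair lies on the same strand at chr7:142654968-142654989 (5p) and chr7:142654932-142654952 (3p), in no exon of the annotated Igf2 transcripts. No seed was shared. The libraries were made from polyA RNA and do not measure mature miRNAs, and the Mir483 row was listed at 0 in all 4 tumors.

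The start sites of Igf2, Dlk1 and Meg3 are shown because the values of these genes against their neighbours are compared below. Each window holds 250 bases before and 50 after a start site in RefSeq on GRCm38.p6, on the gene's strand, with CpG dinucleotides, the sites of DNA methylation, in capitals. The Igf2 window is chr7:142657447-142657746 (minus strand, 1 of 4 windows listed for the gene), that of Dlk1 is chr12:109452573-109452872 (plus strand) and that of Meg3 is chr12:109540746-109541045 (plus strand, 1 of 2).
Igf2: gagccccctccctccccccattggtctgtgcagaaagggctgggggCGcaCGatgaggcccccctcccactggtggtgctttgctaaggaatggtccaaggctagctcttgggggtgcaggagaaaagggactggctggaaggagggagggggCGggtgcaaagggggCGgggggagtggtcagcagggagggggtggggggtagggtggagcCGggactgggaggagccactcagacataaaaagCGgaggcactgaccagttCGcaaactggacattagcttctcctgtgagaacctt
Dlk1: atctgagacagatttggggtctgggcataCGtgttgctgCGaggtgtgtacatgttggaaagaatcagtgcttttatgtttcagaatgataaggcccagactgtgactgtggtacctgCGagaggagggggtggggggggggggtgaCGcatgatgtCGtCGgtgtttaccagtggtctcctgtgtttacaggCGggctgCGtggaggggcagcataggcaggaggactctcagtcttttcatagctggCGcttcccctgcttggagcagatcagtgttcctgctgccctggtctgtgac
Meg3: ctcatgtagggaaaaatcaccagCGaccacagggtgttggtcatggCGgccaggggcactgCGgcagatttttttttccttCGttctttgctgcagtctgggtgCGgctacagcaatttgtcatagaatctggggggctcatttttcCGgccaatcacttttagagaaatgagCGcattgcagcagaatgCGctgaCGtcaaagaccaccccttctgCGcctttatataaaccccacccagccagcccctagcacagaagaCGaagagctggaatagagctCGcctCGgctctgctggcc
The windows hold 7, 9 and 13 CpGs, and 52.1%, 45.8% and 37.9% of 32817 such windows in the mouse hold at least as many. The Meg3 window holds TATAAA on each strand, in matches that overlap, 29 and 25 bases before the start, and 13.6% of all windows hold TATAAA on either strand. Across 7 of the 10 genes with a listed window, CpG counts reached 34 in Igf2r and 45 in Grb10, whose count is met by 1.93% of all windows. These are descriptions of sequence, and methylation was not measured.

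Rank itself (Tnfrsf11a) was at 2.07 FPKM in tumor 26043 and 0.962 FPKM in tumor 26044, against 10.6 and 11.9 FPKM in the double-mutant tumors, so the groups followed their labels. Brca1 was at 3.26 and 3.28 FPKM in the triple-mutant against 3.84 and 5.69 FPKM in the double-mutant tumors. Trp53 was at 15.7 and 87.8 against 150 and 103 FPKM. Both genes, whose values sum all exons, were thus lower in both triple-mutant tumors, as were 22.9% of all tested genes. Luminal markers were present in every tumor, but their summed level was 515 FPKM in tumor 26044 against 2463 to 3259 FPKM in the others, with Epcam at 25.7 FPKM there. Of the 8 luminal markers, 5 (Krt8, Krt18, Epcam, Elf5 and Cd24a) were lower and 1, Krt19, higher in both triple-mutant tumors. Krt19, at 1154 FPKM, made up much of the luminal sum of tumor 26043, against 194 FPKM in tumor 26044 and 139 and 56.7 FPKM in the double-mutant tumors. Basal markers summed to 1751 and 1315 FPKM in the triple-mutant and 70.4 and 47.6 FPKM in the double-mutant tumors, and 7 of 8 did not overlap. Fibroblast markers summed to 241 and 139 against 948 and 459 FPKM, with 4 of 9 lower and 1 higher in both triple-mutant tumors. Immune markers summed to 145 and 147 against 458 and 307 FPKM, with 4 of 7 lower and 1 higher. Endothelial markers overlapped, at 33.4 to 117 FPKM. Adipocyte markers summed to 11.0 and 264 against 2105 and 43.3 FPKM, with 5 of 8 lower and 0 higher in both triple-mutant tumors, Fabp4 at 261 FPKM in tumor 26044, and Adipoq, Plin1, Lep and Retn each at 0 in at least 1 tumor. Skeletal muscle markers summed to 2.06 to 2.92 FPKM in 3 tumors and to 34.8 FPKM in tumor 26050, with 3 of 8 lower in both triple-mutant tumors, and Myod1, Myog and Myh4 were each at 0 in at least 1 tumor. The part of this cell makeup in the values below was not tested, and in bulk tumors fewer cells of a type and less RNA per cell cannot be told apart.

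The median FPKM over the 4 tumors, a level per transcript length, ran from 660 for H19 through 25.3 for Igf2r, 10.2 for Igf2, 7.65 for Grb10, 4.67 for Peg3, 3.78 for Sgce, 3.18 for Meg3, 1.16 for Peg10 and 0.715 for Dlk1 to 0.540 for Plagl1. Each gene's range over the tumors overlapped that of the next gene in this order, so no step in it exceeded the spread between tumors. The genes varied widely. The median span of the 9 tested members from the lowest to the highest tumor was 1.65 on the log2(FPKM + 1) scale, against 0.93 for all tested genes. Of all 10 genes, 4 spanned at least 2 log2 units, among them the untested Plagl1, as did 14.6% of all tested genes. Tumor 26048 was the highest of the 4 for 5 of the genes and the lowest for none, while tumors 26044 and 26050 were each lowest for 4. Of the 40 values, 7 lay outside Cufflinks' own interval, whose half-width at 1 FPKM or more was 0.905% to 23.7% of its midpoint.

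**Figure D1:**
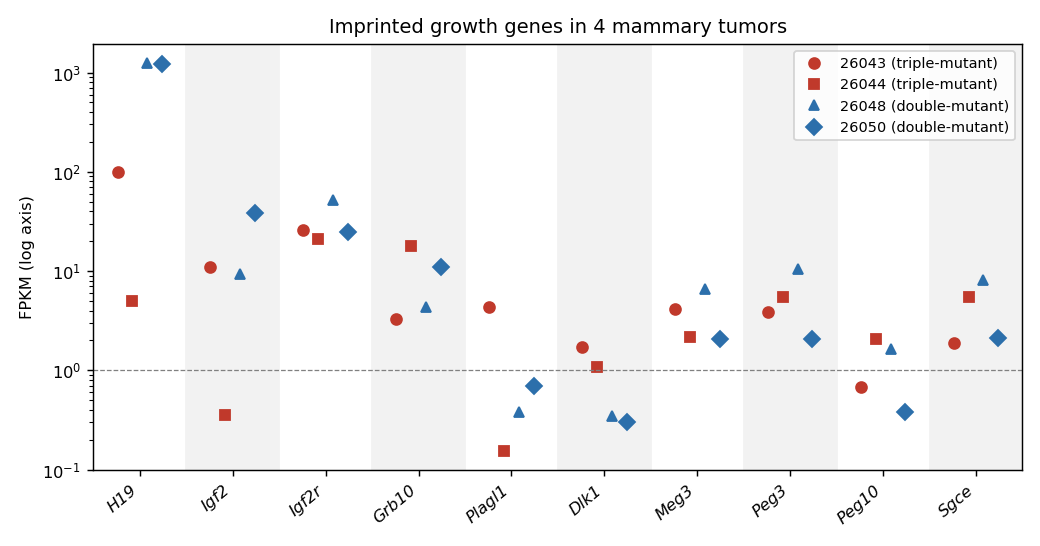
FPKM of the 10 imprinted growth genes in each tumor (log axis, red triple-mutant, blue double-mutant, 1 point per tumor, dashed line at 1 FPKM). H19 was at 1221 FPKM or more in both double-mutant tumors and at 5.0 and 99.0 FPKM in the triple-mutant tumors, Dlk1 was separated the other way, and the genotypes overlapped for the other 8 genes.

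The comparison of genotypes asks which of these genes differed between tumors with and without Rank. In limma on log2(FPKM + 1) with Benjamini-Hochberg adjustment, 0 of the 9 tested genes passed an adjusted p of 0.05, as did 0% of all genes tested. H19 and Dlk1 had an unadjusted p under 0.05, 2 of 9, where 9.82% of all tested genes did (3.91% lower and 5.91% higher in triple-mutant tumors). The same 2 genes were the only members whose genotypes did not overlap, 1 lower and 1 higher in triple-mutant tumors, where 44.3% of all tested genes did not overlap (22.9% lower, 21.3% higher). Dlk1 is in both counts and met the filter only through the triple-mutant pair. The median log2 fold change of the 9 genes, triple-mutant minus double-mutant, was -0.25 against -0.02 over all genes tested, with 3 above and 6 below 0. An exact permutation test of 1 gene, 2 tumors against 2, has p = 0.333 as its smallest value.

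**Figure D2:**
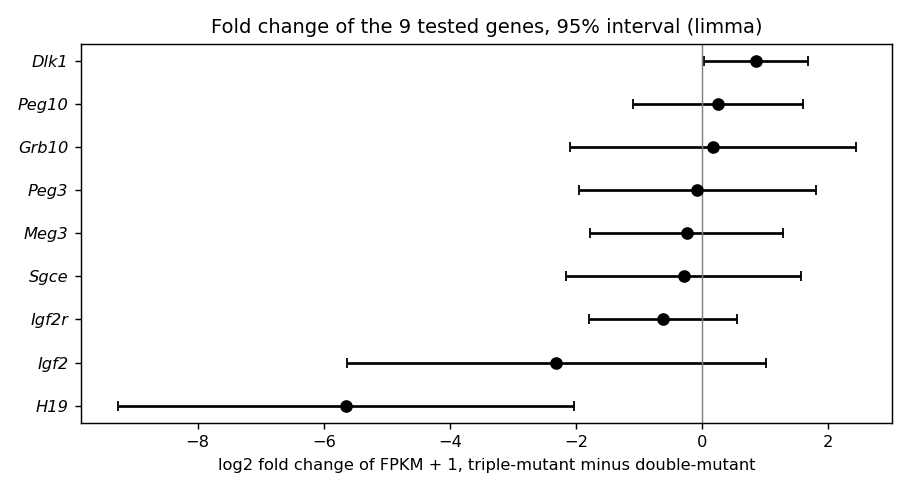
Log2 fold change of FPKM + 1, triple-mutant minus double-mutant, of the 9 tested genes, with limma's 95% confidence interval (2 tumors per genotype). The intervals of H19 (-9.26 to -2.03) and Dlk1 (0.02 to 1.67) lie off 0 before adjustment, and those of the other 7 genes include 0.

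H19, a maternally expressed noncoding RNA that is abundant in the fetus (chr7:142575532-142578146, minus strand, annotated as a lincRNA), differed most. It was at 99.0 FPKM in tumor 26043 and 5.0 FPKM in tumor 26044, against 1237 and 1221 FPKM in the double-mutant tumors 26048 and 26050. The mean of the triple-mutant pair was 52.0 ± 66.5 FPKM (SD, n = 2), against 1229 ± 11.3 FPKM (SD, n = 2) for the double-mutant pair. The double-mutant tumors thus lay together and far above both triple-mutant tumors, which differed widely from each other. The double-mutant mean was 12.4 times the level of tumor 26043 and 246 times that of tumor 26044. In the double-mutant tumors H19 ranked 98 and 104 of all 23746 rows and took 0.174% and 0.164% of the summed FPKM, while it ranked 1002 in tumor 26043 and 8861 in tumor 26044. The log2 fold change was -5.65 (standard error 1.37, 95% interval -9.26 to -2.03, adjusted p = 0.402 over all tested genes in limma). Within the triple-mutant pair the tumors differed by 4.06 log2 units and within the double-mutant pair by 0.02, and leaving out 1 tumor moved the fold change from -7.68 (without 26043) to -3.62 (without 26044). The half-width of Cufflinks' interval for H19 was 0.905% to 11.2%, and in both double-mutant tumors the FPKM lay just below its own interval, which began at 1246 and 1229 FPKM. Tumor 26044, the lowest in H19, was also the lowest in the sums of luminal and fibroblast markers. Its skeletal muscle sum was the lowest too, but by little, at 2.06 FPKM against 2.13 FPKM in tumor 26048. The immune sum was lower and the basal sum higher in both triple-mutant tumors. The fibroblast sum had the order of H19 over the tumors, while the luminal sum was highest in tumor 26043, at 3259 FPKM. The part of cell makeup in the H19 value was not tested.

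Igf2, the growth factor of the fetus, expressed from the paternal copy, lies 72621 bases from H19 (chr7:142650768-142661035, minus strand). It was at 11.0 FPKM in tumor 26043 and 0.353 FPKM in tumor 26044, against 9.35 FPKM in tumor 26048 and 38.1 FPKM in tumor 26050. The genotypes overlapped, since tumor 26043 was above tumor 26048, and tumor 26044 was again the lowest. The log2 fold change was -2.32 (standard error 1.26, 95% interval -5.64 to 1.01, adjusted p = 0.593 in limma), and without 1 tumor it lay between -3.89 and -0.74. The double-mutant tumors, nearly equal in H19, differed by 1.92 log2 units in Igf2. Part of the Igf2 row, 1343 bases, is shared with the antisense gene Igf2as, which was at 0.008 to 1.62 FPKM. The libraries were strand-specific, but whether strand was used in making the FPKM is not stated. It is thus unknown whether reads of the 2 genes were kept apart there.

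The ratio of H19 to Igf2 within a tumor was 8.97 in tumor 26043 and 14.2 in tumor 26044, against 132 in tumor 26048 and 32.1 in tumor 26050. Both triple-mutant ratios were below both double-mutant ratios, so the level of H19 was lower relative to its neighbour too. The ratio of tumor 26044 divides by Igf2 at 0.353 FPKM, whose Cufflinks interval had a half-width of 35.2%. Within 1 Mb of H19, the 17 other genes tested (the 10 genes aside) had a median log2 fold change of -0.14 and a range of -1.81 to 1.34, and none reached the value of H19. Within 5 Mb on either side, the 89 tested genes had a median of 0.09 and ranged from -3.60 to 3.68. Again 0 lay beyond H19, while 4 lay further from 0 than Igf2, counted in either direction. Other imprinted genes of the same stretch differed among themselves. Kcnq1, a potassium channel gene, was at 3.06 and 3.8 against 0.891 and 0.603 FPKM, higher in both triple-mutant tumors. Its row also spans the antisense RNA Kcnq1ot1, itself at 0.534 to 0.898 FPKM, and whether reads of the pair were kept apart by strand is unknown. Cdkn1c, which encodes the cyclin-dependent kinase inhibitor p57, overlapped, at 6.69 and 80.9 against 18.2 and 4.98 FPKM. Phlda2, a placental growth restrainer, overlapped at 22.0 and 10.1 against 8.44 and 55.5 FPKM. Cd81, a tetraspanin gene, had a log2 fold change of -0.64 and Ascl2, a transcription factor gene of the placenta, of 0.08, and Cd81 was the lower in both triple-mutant tumors. Tssc4 (-0.18) and Nap1l4 (-0.31) differed little and Slc22a18, a transporter gene, was at 0.93 through tumor 26043 alone, at 9.74 FPKM against 1.82 to 1.97 FPKM in the others. Ins2 was listed at 0 in all tumors, and Th, Tspan32 and Kcnq1ot1 were below 1 FPKM in each.

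**Figure D3:**
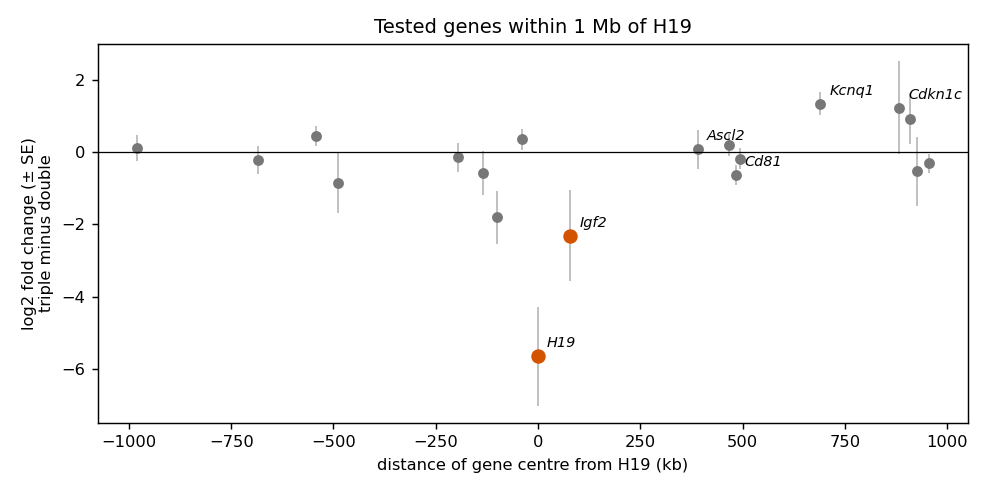
Log2 fold change (triple-mutant minus double-mutant, bars show the standard error from limma) of every tested gene within 1 Mb of H19, against the distance of its centre from that of H19 in kb. H19 at -5.65 and Igf2 at -2.32 lie below the 17 other genes, which range from -1.81 to 1.34.

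The genes most like H19 over the 4 tumors, by the root mean square distance between centred log2(FPKM + 1) profiles, were Met, Csn1s1 and Atp6v1c2. Met, the receptor of hepatocyte growth factor, was at 13.2 and 0.661 against 726 and 386 FPKM (distance 0.73 log2 units). Csn1s1, a milk casein gene, was at 64.1 and 0.882 against 244 and 807 FPKM (distance 0.74). Atp6v1c2, a proton pump subunit gene, was further off, at a distance of 1.18. For Igf2 the nearest profiles were those of Chit1 (0.14), Rhpn2 (0.31) and Gpx2 (0.36). Gpx2, a glutathione peroxidase gene, was at 131 and 7.56 against 122 and 411 FPKM, with its lowest value in tumor 26044 and its highest in tumor 26050, as for Igf2. With 4 tumors such likeness is a description alone.

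Igf2r and Grb10 restrain growth and are expressed from the maternal copy in most tissues. Igf2r, the receptor that takes IGF2 into lysosomes (chr17:12682406-12769706, minus strand), was at 25.8 and 20.9 FPKM in tumors 26043 and 26044 and at 52.5 and 24.8 FPKM in tumors 26048 and 26050. Tumor 26048 stood above the other 3, which lay close together, and the log2 fold change was -0.62 (standard error 0.44, 95% interval -1.79 to 0.56, adjusted p = 0.670 in limma). Its row overlaps that of Airn, the paternally expressed noncoding RNA of the domain, by 28396 bases, and Airn was at 4.10 and 9.71 against 13.0 and 3.81 FPKM. Both rows were highest in tumor 26048. The ratio of Igf2r to Igf2 was 2.34 and 59.2 in the triple-mutant pair and 5.61 and 0.652 in the double-mutant pair, so receptor and ligand stood in no common proportion within either genotype.

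Grb10 encodes an adaptor that dampens insulin and IGF1 receptor signalling (chr11:11930499-12037420, minus strand). It was at 3.27 and 17.7 FPKM in the triple-mutant tumors and at 4.31 and 11.0 FPKM in the double-mutant tumors. Each genotype held 1 low and 1 high tumor, and the log2 fold change was 0.16 (standard error 0.86, 95% interval -2.1 to 2.43, adjusted p = 0.955 in limma). The nearest profiles to Grb10 were those of Ogdhl (0.12 log2 units), Fam189b (0.13) and Afap1l1 (0.13). Cobl, its imprinted neighbour, ran opposite to it within both pairs, at 9.59 and 1.34 FPKM in the triple-mutant and 17.8 and 5.14 FPKM in the double-mutant pair.

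Plagl1, a paternally expressed zinc finger factor known to act on other imprinted genes (chr10:13090788-13131695, plus strand), was at 4.33 FPKM in tumor 26043. It was at 0.155 FPKM in tumor 26044 and at 0.385 and 0.696 FPKM in the double-mutant tumors. The high value belonged to 1 triple-mutant tumor while the other was the lowest of all 4, and the means differed by 0.69 on the log2(FPKM + 1) scale with no test at the filter used. All 11 tested genes within 1 Mb had a log2 fold change above 0, with a median of 0.70 against -0.02 over all genes tested. Within 5 Mb 21 of 22 were above 0, with a median of 0.71. The difference of means of Plagl1 was close to these medians, but it rested on tumor 26043 alone, while tumor 26044 was the lowest. Whether Plagl1 shared a shift of its surroundings was not tested. The profiles nearest to Plagl1 were those of Zfand2a (0.039), a heat-inducible gene, Galnt6 (0.086), a glycosyltransferase gene, and Hspa1b (0.10), an inducible heat shock protein gene. Hspa1b was at 51.4 and 12.3 against 15.2 and 17.8 FPKM, with the tumors in the same order as for Plagl1, though its near-identical copy Hspa1a can share its reads.

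Dlk1, a paternally expressed transmembrane protein of the Delta-like family that keeps precursor cells from differentiating (chr12:109452823-109463336, plus strand), was the only one of the 10 genes that was higher in both triple-mutant tumors. It was at 1.73 FPKM in tumor 26043 and 1.08 FPKM in tumor 26044, against 0.350 and 0.30 FPKM in the double-mutant tumors. Levels were low in every tumor, and the gene met the filter only through the triple-mutant pair, so that a difference followed in part from the filter. The log2 fold change was 0.85 (standard error 0.31, 95% interval 0.02 to 1.67, adjusted p = 0.508 in limma), and with a pseudocount of 0.1 in place of 1 it was 1.79. Without 1 tumor it lay between 0.65 and 1.04.

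Meg3, the maternally expressed noncoding RNA 77659 bases from Dlk1 (chr12:109540996-109571729, plus strand, annotated as a lincRNA), was at 4.17 and 2.18 FPKM in the triple-mutant and 6.59 and 2.05 FPKM in the double-mutant tumors. The genotypes overlapped, and the log2 fold change was -0.25 (standard error 0.58, 95% interval -1.77 to 1.28, adjusted p = 0.902 in limma). Rian, the next noncoding RNA of the domain, was at 2.31 and 1.32 against 3.87 and 2.06 FPKM, with tumor 26048 highest as for Meg3, and Mirg, Rtl1 and Dio3 stayed below 0.5 FPKM in all tumors. The ratio of Meg3 to Dlk1 was 2.41 and 2.02 in the triple-mutant pair against 18.9 and 6.83 in the double-mutant tumors. Thus Dlk1 was the higher relative to its neighbour in both triple-mutant tumors. The double-mutant ratios divide by low Dlk1 values, whose Cufflinks intervals had half-widths of 37.9% in tumor 26048 and 41.6% in tumor 26050.

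Peg3, a paternally expressed zinc finger gene (chr7:6705960-6730419, minus strand), was at 3.87 and 5.48 FPKM in the triple-mutant and at 10.4 and 2.07 FPKM in the double-mutant tumors. The double-mutant tumors were the highest and the lowest of the 4, and the log2 fold change was -0.08 (standard error 0.71, 95% interval -1.95 to 1.80, adjusted p = 0.976 in limma). In 3 tumors the FPKM of Peg3 lay outside its own interval, and with the interval midpoint in its place the fold change was 0.022. Its imprinted neighbours Zim1 and Usp29 were below 1 FPKM in every tumor.

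Sgce, which encodes epsilon-sarcoglycan (chr6:4674350-4747204, minus strand), and Peg10, a gene derived from a retrotransposon and needed in the placenta (chr6:4747306-4760516, plus strand), are both paternally expressed and lie head to head, 101 bases apart. Sgce was at 1.89 and 5.45 FPKM in the triple-mutant and 8.07 and 2.1 FPKM in the double-mutant tumors. Peg10 was at 0.680 and 2.07 FPKM in the triple-mutant and 1.64 and 0.378 FPKM in the double-mutant tumors. For both genes tumors 26044 and 26048 were above tumors 26043 and 26050, so each genotype held a high and a low tumor. The log2 fold change was -0.30 for Sgce (standard error 0.71, adjusted p = 0.904 in limma) and 0.25 for Peg10 (standard error 0.51, adjusted p = 0.885 in limma). The ratio of Sgce to Peg10 was 2.77 and 2.63 in the triple-mutant pair against 4.91 and 5.56 in the double-mutant tumors. The ratio was thus nearly equal within a genotype although each gene varied several-fold. The half-widths of Cufflinks' intervals behind it ran from 10.3% (Sgce in tumor 26048) to 31.9% (Peg10 in tumor 26050), and in tumor 26044 the FPKM of Peg10 lay below its own interval. Of the 5 other imprinted genes tested within 1 Mb, Tfpi2 (-1.35) and Ppp1r9a (-0.65) were lower in both triple-mutant tumors, while Casd1 (0.14), Pon2 (0.34) and Pon3 (-0.58), given as log2 fold changes, overlapped between genotypes. Among all tested genes 44.3% did not overlap, and neither Tfpi2 nor Ppp1r9a had an unadjusted p under 0.05 in limma.

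**Figure D4:**
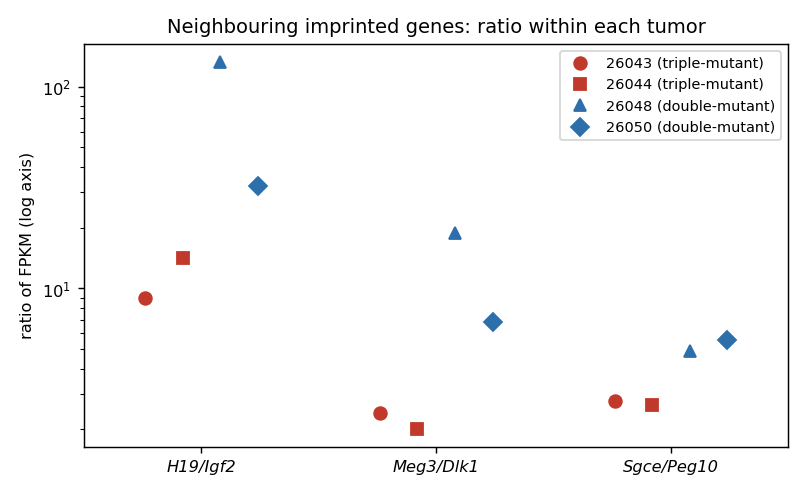
Ratio of FPKM of H19 to Igf2, Meg3 to Dlk1 and Sgce to Peg10 within each tumor (log axis, red triple-mutant, blue double-mutant, 1 point per tumor). In each of the 3 pairs both double-mutant tumors lie above both triple-mutant tumors.

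The 3 ratios of neighbouring genes were chosen with the values of the genes known and carry no test. The further ratio made, that of Igf2r to Igf2, overlapped between genotypes. Among single tested genes 44.3% did not overlap. Dlk1, in the ratio with Meg3, met the filter only through the triple-mutant pair.

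Of 65 other imprinted genes listed, 63 were found and 40 were tested, and 0 passed the adjusted threshold in limma. An unadjusted p under 0.05 was found for 4 higher and 3 lower in triple-mutant tumors, where 5.91% and 3.91% of all tested genes had one. The genotypes did not overlap in 8 higher and 9 lower genes, 42.5% of those tested, near the 44.3% of all tested genes. Their median log2 fold change was -0.17, that of 14 paternally expressed genes -0.10 and that of 23 maternally expressed genes -0.20. Mest, a paternally expressed hydrolase-like gene of mesoderm, was at 95.5 and 144 against 11.2 and 6.13 FPKM (log2 fold change 3.66, standard error 0.41, adjusted p = 0.167 in limma). Peg13, a paternally expressed noncoding RNA, was at 6.24 and 10.4 against 3.37 and 3.10 FPKM, and Mkrn3, a paternally expressed zinc finger gene, at 1.03 and 1.78 against 0.102 and 0.151 FPKM. Lower in both triple-mutant tumors were Gatm, an enzyme gene of creatine synthesis, at 21.8 and 6.71 against 38.4 and 34.3 FPKM, and Tfpi2, a protease inhibitor gene, at 2.22 and 0.641 against 8.44 and 2.64 FPKM. Snrpn and Snurf, which share a transcript so that their rows cannot be told apart, had log2 fold changes of -1.11 each. Sfmbt2 had one of -0.86, and with Snrpn and Snurf it made up the 3 lower genes at an unadjusted p under 0.05. Sfmbt2, Mkrn3 and Kcnq1 met the filter only through the genotype in which they were high, and all 3 are in the counts at an unadjusted p under 0.05. Ppp1r9a was at -0.65, while Trappc9 and Blcap were at 0.20 each. Paternally expressed genes were therefore found on either side, as Mest and Snrpn show. Nnat, a paternally expressed neuronal gene, was at 498 FPKM in tumor 26044 and at 1.18, 7.29 and 3.64 FPKM in tumors 26043, 26048 and 26050; it is named for this single value, after it was seen.

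Around the ligand Igf2 and its receptor Igf2r, 22 other genes of the insulin-like growth factor pathway were listed and 16 tested, with 0 past the adjusted threshold in limma, 7 with an unadjusted p under 0.05 and the same number without overlap, 3 higher and 4 lower in triple-mutant tumors. The 43.8% without overlap lay near the 44.3% of all tested genes, of which 9.82% had an unadjusted p under 0.05. Their median log2 fold change was 0.11. All 3 of the IGF2 mRNA-binding protein genes, whose products bind Igf2 mRNA in the fetus, were lower in both triple-mutant tumors. Igf2bp3 was at 0.724 and 0.276 against 23.1 and 7.23 FPKM (log2 fold change -3.25, standard error 0.61, adjusted p = 0.296 in limma). Igf2bp1 was at 0.009 and 0.098 against 3.26 and 3.31 FPKM (log2 fold change -2.02, standard error 0.29, adjusted p = 0.199 in limma). Igf2bp2 was at 0.957 and 0.422 against 2.18 and 8.78 FPKM. None of the 3 passed the adjusted threshold. All 3 met the filter only through the double-mutant pair, where they were high, so that a difference followed in part from the filter. The same held for Stc1 through the triple-mutant pair. These Igf2bp genes and Stc1 are all in both counts of 7 genes given above. Of the binding proteins that hold IGFs in the extracellular space, Igfbp5 was at 154 and 70.7 against 508 and 336 FPKM. Igfbp3 went the other way, at 114 and 330 against 31.5 and 39.7 FPKM, with log2 fold changes of -1.97 for Igfbp5 and 2.42 for Igfbp3 (adjusted p = 0.409 and 0.396 in limma). Irs2, the docking protein of the receptor, was at 13.0 and 23.2 against 7.16 and 5.16 FPKM, and Stc1, an inhibitor of IGF-binding-protein cleavage, at 1.91 and 6.05 against 0.781 and 0.604 FPKM. Igf1r, the receptor through which IGF2 signals, overlapped at 8.54 and 27.3 against 9.01 and 2.76 FPKM. Igf1, the other ligand, stayed at or below 1.93 FPKM and was not tested.

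**Figure D5:**
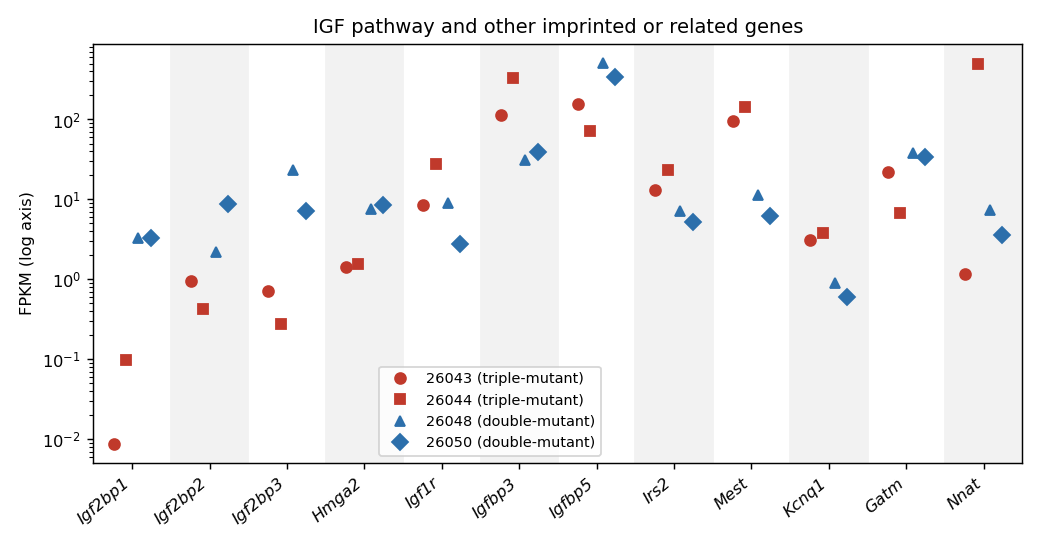
FPKM of IGF pathway genes, Hmga2 and other imprinted genes in each tumor (log axis, red triple-mutant, blue double-mutant, 1 point per tumor). Igf2bp1, Igf2bp2, Igf2bp3, Hmga2, Igfbp5 and Gatm were lower and Igfbp3, Irs2, Mest and Kcnq1 higher in both triple-mutant tumors, while Igf1r and Nnat overlapped.

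Of 11 oncofetal genes, which are active in the fetus and again in tumors and include the 3 Igf2bp genes, 6 were tested and 0 passed in limma, with 4 lower and 1 higher both at an unadjusted p under 0.05 and without overlap (9.82% and 44.3% of all tested genes in either direction). Of the 4 lower genes 3 were the Igf2bp genes, which met the filter only through the double-mutant pair. The median log2 fold change of the 6 was -1.80. Hmga2, a chromatin protein gene, was at 1.42 and 1.53 against 7.54 and 8.43 FPKM (log2 fold change -1.86, adjusted p = 0.234 in limma). Gpc3, a glypican that restrains fetal growth, was at 12.7 and 61.0 against 4.46 and 3.84 FPKM (log2 fold change 2.5, adjusted p = 0.480 in limma). Among 18 genes that keep or erase methylation imprints 14 were tested and 0 passed in limma (1 at an unadjusted p under 0.05, where 9.82% of all tested genes were), with a median of -0.25 and 5 lower and 1 higher without overlap, 42.9% against 44.3% of all tested genes. Hells and Uhrf1, which act with the maintenance methyltransferase, had log2 fold changes of -0.59 and -0.57, and Ctcf, whose product insulates Igf2 from its enhancers, was at 18.0 and 12.3 against 19.5 and 19.1 FPKM. The difference of Ctcf was smaller than the gap between the triple-mutant tumors. Mbd3, a subunit of a deacetylase complex, was at 169 and 206 against 105 and 110 FPKM. Of 16 Notch pathway genes listed as partners of Dlk1, 13 were tested and 0 passed in limma (6 at an unadjusted p under 0.05, where 9.82% of all tested genes were), with 8 higher and 0 lower without overlap (21.3% and 22.9% of all tested genes) and a median of 1.35. Dlk2, the paralog of Dlk1, was at 23.9 and 13.0 FPKM in the triple-mutant tumors, listed at 0 in tumor 26048 and at 0.293 FPKM in tumor 26050 (adjusted p = 0.143 in limma). Dlk2 met the filter only through the triple-mutant pair and is in both counts. The Notch ligand gene Jag2 had a log2 fold change of 3.58 and the Notch target Nrarp one of 3.15 (adjusted p = 0.184 and 0.284 in limma). Basal markers were higher in the same tumors, and their part in these values was not tested.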

How the data were processed

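PolyA RNA of 4 mammary tumors, each from a separate female, was grouped by genotype from the sample labels. The authors made strand-specific libraries. Per the labels and the submitters' processing notes, TopHat2 2.0.10, Bowtie 0.12.9, Cufflinks 2.1.1 and build mm10 were used, and the deposited values are FPKM per gene with Cufflinks' interval bounds in FPKM. The level of that interval, the annotation and the strand setting are not given in the sources used here. The authors' HTSeq counts and DESeq2 1.6.2 results were not analysed here. Read depth is unknown. Summed FPKM was 690775 to 796031, genes at 1 FPKM or more numbered 12150 to 12681, and the median half-width of the interval was 8.36% to 9.05% of its midpoint per tumor.

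Rows (23746) were joined by symbol and position. The 12752 genes that reached 1 FPKM in 2 or more tumors were fitted on log2(FPKM + 1), which understates changes of low genes, with limma 3.58.1 in R 4.3.3 (lmFit, eBayes with trend), 2-sided, with Benjamini-Hochberg adjustment over all of them. Since only FPKM were used, no count test was run. Scripts were tested on simulated data. Tables and plots were made in Python 3.11.15 (numpy 2.4.6, pandas 2.3.3, matplotlib 3.10.9). Coordinates are those of the tables with 1 added to starts, and 98.0% of 21209 rows with a GENCODE M21 symbol overlapped that gene on GRCm38.

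The members and lists were chosen with earlier results of these data known. Named were all members, in each list the 3 tested genes of largest fold change per direction without overlap, the 3 nearest profiles of members spanning at least 2 log2 units, imprinted neighbours and the targeted genes. Igf2bp2, Igf1r, Igf1, Kcnq1ot1, Igf2as and marker genes were named besides, after their values were seen. Alternatives were TPM, a pseudocount of 0.1, a filter at 5 FPKM or none, quantile normalization, no trend, status OK in all tumors, interval midpoints, subtraction of the median of neighbouring genes and each tumor left out.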

Additional observations from a re-analysis of the deposited data

How the results depend on the processing

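Of 79 member fold changes under alternatives other than a left-out tumor, 78 kept their direction and side of the threshold and 1 reversed, Peg3 with the interval midpoint (0.022). The number of genes changed over the whole table, 0 in the limma fit reported (1252 at an unadjusted p under 0.05), was 6 with quantile normalization, 5 without the trend and 1 with interval midpoints, and 0 of the members or other imprinted genes passed under any alternative. Dlk1, Meg3 and Peg10 were not tested at 5 FPKM, and Plagl1 was tested only with no filter (0.69, adjusted p = 0.960 in limma).

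With 1 tumor left out, a genotype rests on a lone tumor assumed to vary like the other pair. The count of changed genes stayed at 0, and 10 of 36 member fold changes reversed. The ranges were -7.68 to -3.62 for H19, -3.89 to -0.74 for Igf2, -1.14 to -0.09 for Igf2r, 0.65 to 1.04 for Dlk1, -0.90 to 0.41 for Meg3, -1.03 to 0.87 for Peg3, -0.22 to 0.72 for Peg10, -0.90 to 1.23 for Grb10 and -1.07 to 0.48 for Sgce. The median of the members ranged from -1.03 (without 26050) to 0.41 (without 26048), and without 26043 it was 0.13 while the median of all genes was -0.12. Over all alternatives the adjusted p of H19 was 0.107 to 0.992 and that of Dlk1 0.409 to 0.992 in limma. No paired analysis was possible because the tumors of the genotypes share no replicate number. The depth behind each FPKM is unknown, and low members such as Dlk1 and Peg10 are the least precise.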
